A study of Mus musculus with 49 samples.

Results

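The mitochondrial ribosomal protein genes were the 76 gene symbols beginning with Mrpl or Mrps and a number, of 23992 symbols in the files. They were chosen by name, with the longest transcript of each symbol and a mean of at least 1 RPKM (reads per kilobase of transcript, scaled to the depth of each library) over the libraries used. All 76 symbols of that form passed the RPKM limit, which 10735 of the 23992 symbols passed, so none of them was left out. RNA-seq was carried out on CD8+ T cells of the spleen from a Stat5a line and a Stat5b line of C57BL/6J mice. Each line had its own WT littermates and a homozygous knockin (KI), STAT5A Y694F or STAT5B Y699F, in which phenylalanine replaces the tyrosine whose phosphorylation activates the protein. Cells were collected before culture (0 hr) and after 4, 24, and 48 hr with human IL-2 at 500 IU/ml, which gave 16 groups of 3 libraries. All groups used here are combinations of these lines, genotypes, and times, namely Stat5a WT, Stat5a KI, Stat5b WT, and Stat5b KI cells, each before culture and at the 3 times with IL-2.

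The KI alleles were made by CRISPR/Cas9 with silent changes beside the codon, and founders made in B6D2F1 zygotes were backcrossed to C57BL/6J. The mice were adults of both sexes, and the sources used here do not say which libraries came from separate mice, so p-values measure the spread between libraries, which may be technical. A KI cell still has the other STAT5 protein intact. The cells were enriched with an isolation kit and no sort is described, and all cultures but those at 0 hr received IL-2. Time in culture and IL-2 therefore cannot be told apart.

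Mitochondrial ribosomes translate the few proteins encoded by mitochondrial DNA, which are core subunits of the respiratory chain and of ATP synthase. Their RNAs are made in the mitochondrion, whereas all of their proteins are encoded in the nucleus, made in the cytosol, and imported. Many of these proteins descend from bacterial ribosomal proteins and others were added in the mitochondrial lineage. Resting T cells have little mitochondrial mass, and growth after activation is accompanied by mitochondrial biogenesis. Of the 76 members, 49 encode proteins of the large subunit and 26 proteins of the small subunit. The remaining member, Mrps36, is named as a ribosomal protein but encodes a subunit of the 2-oxoglutarate dehydrogenase complex. Bacterial homologs are known for 48 of the members, and 28 have none. The members are spread over 17 chromosomes, with 10 of them on chromosome 11.

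Promoter windows of 6 members are shown because these genes mark the range of the results. Mrpl51 had the largest change from 0 to 48 hr in WT cells, Mrpl12 and Mrps22 were among the members lowest in both KI lines, Mrpl20 was among the 5 lowest in Stat5b KI cells, and Mrpl9 and Mrpl52 were 2 of the 3 members that did not pass the test at 48 hr in WT cells. Each window runs 5′ to 3′ on the strand of the gene, from 250 bases before the start site to 30 bases from it, and is taken from RefSeq on GRCm38.p6, the build of the files. Capitals mark a match, on either strand, to 1 of 5 motifs, which were CACGTG (the E-box that MYC and other factors read), CCGGAAG (an ETS site of the type read by GABP), GCGCATGC (part of the palindrome read by NRF1), AAGATGGCG (read by YY1), and TTCNNNGAA (the GAS site that STAT5 and other STAT proteins read). The windows lie at chr6:125191950-125192229 on the plus strand for Mrpl51, chr11:120484387-120484666 on the plus strand for Mrpl12, chr9:98601650-98601929 on the minus strand for Mrps22, chr4:155802628-155802907 on the plus strand for Mrpl20, chr3:94443086-94443365 on the plus strand for Mrpl9, and chr14:54426659-54426938 on the plus strand for Mrpl52.
Mrpl51: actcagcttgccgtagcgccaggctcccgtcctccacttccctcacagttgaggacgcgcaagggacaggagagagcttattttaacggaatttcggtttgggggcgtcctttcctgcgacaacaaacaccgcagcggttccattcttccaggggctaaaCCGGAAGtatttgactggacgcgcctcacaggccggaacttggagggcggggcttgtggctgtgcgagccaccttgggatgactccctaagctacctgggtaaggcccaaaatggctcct
Mrpl12: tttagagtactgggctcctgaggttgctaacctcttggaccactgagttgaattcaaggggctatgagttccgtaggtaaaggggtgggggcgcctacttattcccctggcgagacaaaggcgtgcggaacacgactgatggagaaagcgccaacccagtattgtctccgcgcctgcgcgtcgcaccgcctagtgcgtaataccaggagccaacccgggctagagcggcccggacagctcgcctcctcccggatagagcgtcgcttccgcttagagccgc
Mrps22: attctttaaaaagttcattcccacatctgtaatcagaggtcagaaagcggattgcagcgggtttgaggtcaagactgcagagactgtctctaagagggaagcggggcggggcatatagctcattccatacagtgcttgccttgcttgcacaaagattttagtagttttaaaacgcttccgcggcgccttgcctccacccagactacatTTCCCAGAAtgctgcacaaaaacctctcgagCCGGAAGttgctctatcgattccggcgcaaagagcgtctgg
Mrpl20: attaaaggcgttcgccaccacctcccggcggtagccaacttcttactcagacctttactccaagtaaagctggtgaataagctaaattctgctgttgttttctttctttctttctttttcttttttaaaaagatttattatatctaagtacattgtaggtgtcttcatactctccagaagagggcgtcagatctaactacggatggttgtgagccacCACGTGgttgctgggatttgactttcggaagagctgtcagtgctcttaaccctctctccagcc
Mrpl9: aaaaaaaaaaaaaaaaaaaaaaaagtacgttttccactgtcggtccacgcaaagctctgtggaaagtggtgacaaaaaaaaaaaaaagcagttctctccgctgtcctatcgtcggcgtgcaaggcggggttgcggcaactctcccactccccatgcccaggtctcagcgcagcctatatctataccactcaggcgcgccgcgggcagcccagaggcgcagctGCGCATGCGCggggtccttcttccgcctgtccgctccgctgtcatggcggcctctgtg
Mrpl52: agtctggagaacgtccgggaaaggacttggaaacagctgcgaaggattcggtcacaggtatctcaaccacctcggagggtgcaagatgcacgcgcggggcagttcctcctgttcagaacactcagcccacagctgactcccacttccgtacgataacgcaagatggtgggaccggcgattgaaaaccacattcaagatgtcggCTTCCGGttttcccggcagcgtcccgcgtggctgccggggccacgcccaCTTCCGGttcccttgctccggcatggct

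In these windows the Mrpl51 match is CCGGAAG and begins 90 bases before the start. Mrps22 holds TTCNNNGAA 42 bases before the start and CCGGAAG 11 bases before it. Mrpl20 holds CACGTG 33 bases before the start. In Mrpl9 a GCGCATGC on each strand, the 2 of them overlapping, begins 28 and 26 bases before the start, and in Mrpl52 CCGGAAG occurs on the opposite strand 47 bases before the start and 2 bases after it. No motif of the 5 was found in the Mrpl12 window. The annotated span of Mrpl9 begins upstream of the start used for its window.

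Windows of 300 bases (250 before the start and 50 from it) were given for 67 of the 76 members. CCGGAAG was found for 24 of these 67 genes (35.8%), for 22.6% of the 7925 genes with a mean of at least 1 RPKM, and for 9.93% of all 27025 genes with a window. GCGCATGC was found for 8 members (11.9%), against 6.70% and 3.05% of the same sets, and AAGATGGCG also for 8 members (11.9%), against 4.11% and 1.64%. CACGTG was found for 5 members (7.46%), against 12.3% and 8.09%, and TTCNNNGAA for 6 members (8.96%), namely Mrpl30, Mrpl34, Mrpl42, Mrpl50, Mrps22, and Mrps25, against 8.44% and 9.55%. None of the 5 motifs was found for 28 members, 1 for 27, and 2 for 12. These shares describe letters in the windows, and the sets were not tested against each other.

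In each library, 17369537 to 60202776 reads fell on longest transcripts (median 41412147 over 47 libraries). Replicate 3 of Stat5a KI cells at 4 hr had 1028503 such reads, 5.68% of its mapped reads, and was left out, so that group has 2 libraries. Replicate 2 of Stat5a WT cells at 4 hr also stood apart, with 44.9% of its mapped reads on the longest transcripts against 68.7% to 84.4% in the others, and the counts of called members at 4 hr in the Stat5a line are given with and without it. This share also moved with time and genotype. In Stat5b WT cells it was 70.7% to 74.1% at 0 hr and 83.2% to 84.4% at 48 hr. Stat5b KI cells were at 72.6% to 78.5% at 48 hr, and the genotypes of the Stat5a line overlapped then. RPKM values are scaled to all mapped reads, and the part of this share in them was not tested. The 76 members took 0.177% to 0.358% of the reads of a library. The lowest count of any member in any library used was 84.

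The base changes of the KI alleles cannot be read from counts per gene, so the levels of the targeted genes do not check the genotype labels. Stat5a was at 19.5, 19.0, and 20.5 RPKM in Stat5a WT cells at 0 hr and at 17.9, 20.6, and 21.5 RPKM in Stat5a KI cells. Stat5b was at 28.3, 29.7, and 29.5 RPKM in Stat5b WT cells at 0 hr and at 26.8, 27.2, and 27.0 RPKM in Stat5b KI cells. Stat5a overlapped between the genotypes, while the 3 Stat5b KI libraries lay just under the 3 WT libraries for Stat5b. The log2 fold changes between KI and WT cells were -0.01 for Stat5a (adjusted p = 0.983 in edgeR's quasi-likelihood test, Benjamini-Hochberg adjusted) and -0.19 for Stat5b (adjusted p = 0.206).

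Transcripts listed as markers of CD8+ T cells were present throughout. Of 8 listed, 5 are in the files, namely Cd8a, Cd8b1 (the most abundant), Cd3d, Cd3e, and Cd3g. The Cd3 genes are expressed by all T cells, CD4+ T cells included. At 48 hr the summed level of the 5 was 1062 to 1184 RPKM in Stat5a WT and 1505 to 1661 RPKM in Stat5a KI cells. It was 1030 to 1062 RPKM in Stat5b WT and 1498 to 1667 RPKM in Stat5b KI cells. Markers of B cells, myeloid cells, erythroid cells, and CD4+ T cells were also higher in KI libraries at 48 hr, and those of NK cells were lower. For 6 B cell markers (the most abundant Cd79a) the sums at 48 hr were 13.0 to 38.2 RPKM in Stat5a WT against 96.8 to 116.05 RPKM in Stat5a KI cells, and 11.003 to 13.3 RPKM in Stat5b WT against 119.1 to 124.7 RPKM in Stat5b KI cells. For 6 myeloid markers (the most abundant Lyz2) they were 3.01 to 6.49 against 17.9 to 45.0 RPKM and 3.17 to 4.22 against 46.3 to 73.1 RPKM, respectively. The 8 erythroid markers (the most abundant Hbb-b1) summed to 9.79 to 11.2 against 26.5 to 32.7 RPKM (Stat5a line) and to 6.64 to 12.04 against 163 to 309 RPKM (Stat5b line). No marker of these lists was at 0 in all libraries.

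For 4 CD4+ T cell markers (the most abundant Cd4) the sums at 48 hr were 4.55 to 5.37 RPKM in Stat5a WT, 12.6 to 13.3 RPKM in Stat5a KI, 3.40 to 4.01 RPKM in Stat5b WT, and 17.2 to 17.7 RPKM in Stat5b KI cells. For 6 NK cell markers, some of which activated CD8+ T cells also express (the most abundant Nkg7), they were 395 to 439, 337 to 358, 410 to 444, and 263 to 359 RPKM in the same order. At 0 hr the CD8+ T cell markers summed to 932 to 1164 RPKM in Stat5a WT against 837 to 881 RPKM in Stat5a KI cells and to 1158 to 1298 RPKM in Stat5b WT against 954 to 1016 RPKM in Stat5b KI cells, below WT where they were above it at 48 hr. Also at 0 hr, where few or no members differed between genotypes, the B cell sums already did not overlap, with 53.3 to 150.9 RPKM in Stat5a WT against 229 to 283 RPKM in Stat5a KI cells and 52.6 to 59.99 RPKM in Stat5b WT against 210 to 217 RPKM in Stat5b KI cells. The part of these other cells in the results was not tested, and in bulk RNA fewer cells of a type and less RNA per cell cannot be told apart.

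Together the 76 members summed to 1217, 1226, and 1341 RPKM (lowest, median, and highest library) in Stat5a WT cells at 0 hr and to 1230, 1425, and 1434 RPKM in Stat5b WT cells. At 48 hr the sums were 2543, 2710, and 2834 RPKM in Stat5a WT and 2766, 2858, and 2876 RPKM in Stat5b WT cells. KI cells at 48 hr were at 1858, 1962, and 2093 RPKM (Stat5a line) and at 1570, 1795, and 1800 RPKM (Stat5b line). Every KI library at 48 hr was thus above all libraries of its line at 0 hr and below all WT libraries of its line at 48 hr. At 24 hr the sums were 1938 to 2034 RPKM in Stat5a WT against 1837 to 1890 RPKM in Stat5a KI cells, and 2165 to 2353 RPKM in Stat5b WT against 1487 to 1559 RPKM in Stat5b KI cells. In Stat5b KI cells the 24 hr sums lay within the range at 4 hr (1473 to 1663 RPKM).

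**Figure D1:**
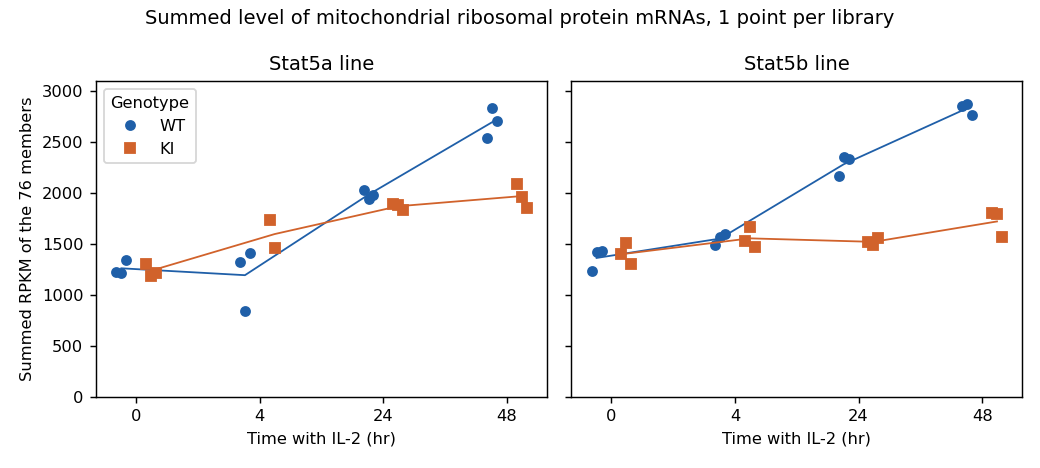
Summed RPKM of the 76 mitochondrial ribosomal protein genes (y axis) against hr of IL-2 (x axis) in the Stat5a and Stat5b lines, with 1 point per library (circles WT, squares KI) and lines through the group means. The WT libraries at 48 hr lie at 2543 to 2876 RPKM, above all others, and the low circle at 4 hr in the Stat5a line is replicate 2, at 844 RPKM.

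Levels of single members differed widely. Mean levels over the 47 libraries ran from 2.61 RPKM for Mrps25 to 70.9 RPKM for Mrpl24, with a median of 20.4 RPKM. The 5 highest were Mrpl24, Mrpl30 (66.0 RPKM), Mrps21 (63.9 RPKM), Mrpl52 (53.9 RPKM), and Mrps16 (48.9 RPKM), and the 3 lowest were Mrps25, Mrpl17 (3.01 RPKM), and Mrpl1 (3.65 RPKM). Mrps25 lay nearest to the limit of 1 RPKM, and no symbol of the family lay under it. Of the 76 members, 60 had their highest group mean in Stat5b WT cells at 48 hr and 11 in Stat5a WT cells at 48 hr. In 69 of the members the 2 highest group means were those of the WT groups at 48 hr. The highest group mean was 1.48 times the lowest for Mrpl43 and 5.92 times the lowest for Mrpl51, with a median of 2.76. The lowest group mean was that of Stat5a WT cells at 4 hr for 36 members, and replicate 2 of that group was the lowest of the 47 libraries for 57. Without that library, left out of these ratios after the data were seen, the ratios of Mrpl43 and Mrpl51 were unchanged and the median was 2.65.

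In WT cells, nearly all members were higher at 48 hr of IL-2 than at 0 hr, by about a doubling. In the Stat5a line 73 of the 76 passed the test as higher and 0 as lower, where 36.9% of the 15562 genes tested were called higher and 34.5% lower (edgeR's quasi-likelihood test at an adjusted p of at most 0.05). The counts in the Stat5b line were also 73 higher and 0 lower, against 35.5% and 33.7% of all genes. The median log2 fold change was 1.06 (Stat5a line) and 1.11 (Stat5b line), beside -0.04 and -0.05 for all genes tested. A fold of at least 2 was reached by 43 members in each line, against 16.0% and 16.2% of all genes in the same order. The large subunit (46 of 49 called in the Stat5a line, median 1.07) and the small subunit (26 of 26, median 1.02) had medians of 1.14 and 1.07 in the Stat5b line.

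The largest change was that of Mrpl51, a large subunit protein with no bacterial homolog. In Stat5a WT cells Mrpl51 was at 5.52, 5.57, and 6.58 RPKM at 0 hr and at 30.3, 34.0, and 31.7 RPKM at 48 hr. In Stat5b WT cells it was at 6.23, 7.06, and 7.25 RPKM and then at 35.7, 34.6, and 34.3 RPKM. All 48 hr libraries were over 4 times the highest 0 hr library, and the log2 fold changes were 2.31 ± 0.11 (SE, adjusted p = 2.89e-20 by edgeR's quasi-likelihood test) and 2.26 ± 0.11 (adjusted p = 4.98e-20).

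Mrpl47, the homolog of a bacterial protein beside the exit of the nascent chain, was next in both lines. It was at 4.38, 3.97, and 4.36 RPKM in Stat5a WT cells at 0 hr and at 18.5, 22.3, and 23.7 RPKM at 48 hr, with log2 fold changes of 2.22 (Stat5a line) and 2.07 (Stat5b line). Mrpl42, Mrpl18, and Mrps10 completed the 5 highest in the Stat5a line (log2 fold changes 1.82, 1.75, and 1.73). In the Stat5b line they were Mrpl18 (1.88), Mrps22 (1.84), and Mrpl1 (1.79). The 2 lists share Mrpl51, Mrpl47, and Mrpl18. Mrpl18 is the homolog of a bacterial protein of the central protuberance and Mrpl1 that of the movable stalk near the exit site.

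Mrpl9, Mrps30, and Mrpl52 did not pass the test at 48 hr in either line. Mrpl9, the homolog of bacterial L9, was at 40.2, 39.2, and 40.3 RPKM in Stat5a WT cells at 0 hr, at 29.5, 28.7, and 33.1 RPKM at 24 hr, and at 38.2, 39.0, and 40.6 RPKM at 48 hr. Mrps30, which carries a small subunit name but sits in the large subunit, was at 24.5, 23.7, and 24.1 RPKM, at 19.1, 16.7, and 20.1 RPKM, and at 24.8, 25.4, and 24.9 RPKM at the same times. The 24 hr libraries of both genes were below all libraries at 0 hr and at 48 hr, and the 0 hr and 48 hr libraries lay close together. At 24 hr the log2 fold changes were -0.53 for Mrpl9 (adjusted p = 0.000419 by edgeR's quasi-likelihood test) and -0.51 for Mrps30 (adjusted p = 3.11e-08) in the Stat5a line, and -0.40 (adjusted p = 0.00615) and -0.35 (adjusted p = 2.47e-05) in the Stat5b line. At 48 hr they were -0.15 and -0.07 (Stat5a line) and -0.17 and 0.03 (Stat5b line). Mrpl52, a large subunit protein without a bacterial homolog, had log2 fold changes of 0.27 (adjusted p = 0.0605) and 0.18 (adjusted p = 0.203) at 48 hr. The next smallest values at 48 hr that passed the test, after Mrpl24, were those of Mrpl32 (0.35, Stat5a line) and Mrpl43 (0.40, Stat5b line).

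The most abundant member, Mrpl24, homolog of the bacterial protein that starts assembly of the large subunit, rose early and then less. It was at 51.3, 62.2, and 58.7 RPKM in Stat5b WT cells at 0 hr, at 83.4, 85.9, and 88.2 RPKM at 4 hr, at 86.7, 92.4, and 83.9 RPKM at 24 hr, and at 69.5, 70.8, and 68.6 RPKM at 48 hr. The 48 hr libraries of Mrpl24 lay between those at 0 hr and those at 4 and 24 hr, without overlap. The log2 fold changes from 0 hr were 0.43 (4 hr), 0.48 (24 hr), and 0.19 (48 hr, adjusted p = 0.00715 by edgeR's quasi-likelihood test) in the Stat5b line and 0.43, 0.49, and 0.30 (adjusted p = 5.28e-05) in the Stat5a line.

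The rise was already broad at 24 hr. In the Stat5a line 65 members were higher and 2 lower than at 0 hr, against 31.6% and 28.0% of all genes, with a median log2 fold change of 0.59. Of the members in the Stat5b line 70 were higher and 2 lower, against 31.9% and 27.5%, with a median of 0.69. The 2 lower members were Mrpl9 and Mrps30 in both lines. Mrpl47 (1.61) and Mrpl51 (1.59) again had the largest log2 fold changes at 24 hr in the Stat5a line, and the same genes led in the Stat5b line (1.53 and 1.59).

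At 4 hr members were called in both directions. The share of members called higher was 31.6% in the Stat5a line, near that of all genes, and 35.5% in the Stat5b line. In the Stat5a line 24 were higher and 15 lower, against 32.4% and 26.5% of all genes, with a median log2 fold change of 0.04. Without replicate 2 of the Stat5a WT cells at 4 hr, the counts were 20 higher and 21 lower, against 28.3% and 30.0% of all genes, with a median of 0.03. The count of higher members was 9 with only the groups compared (13.8% of all genes), 13 with all 48 libraries (19.6%), and 15 by limma (24.1%). In the same order these counts were 11.8%, 17.1%, and 19.7% of the members, each under the share of all genes. Among Stat5b WT cells 27 were higher and 11 lower, against 26.5% and 23.3% of all genes, with a median of 0.07, and 14 were higher with all 48 libraries (16.4% of all genes). Mrpl47 had the largest rise at 4 hr in both lines, with log2 fold changes of 1.01 and 0.94, and Mrpl51 rose by 0.99 and 0.82. Without replicate 2 the Stat5a values were 0.98 for Mrpl47 and 0.70 for Mrpl51, still the 2 highest. Mrps28, the homolog of bacterial S1, fell at 4 hr and rose later. In Stat5b WT cells its log2 fold change was -0.86 at 4 hr and 1.05 at 48 hr.

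**Figure D2:**
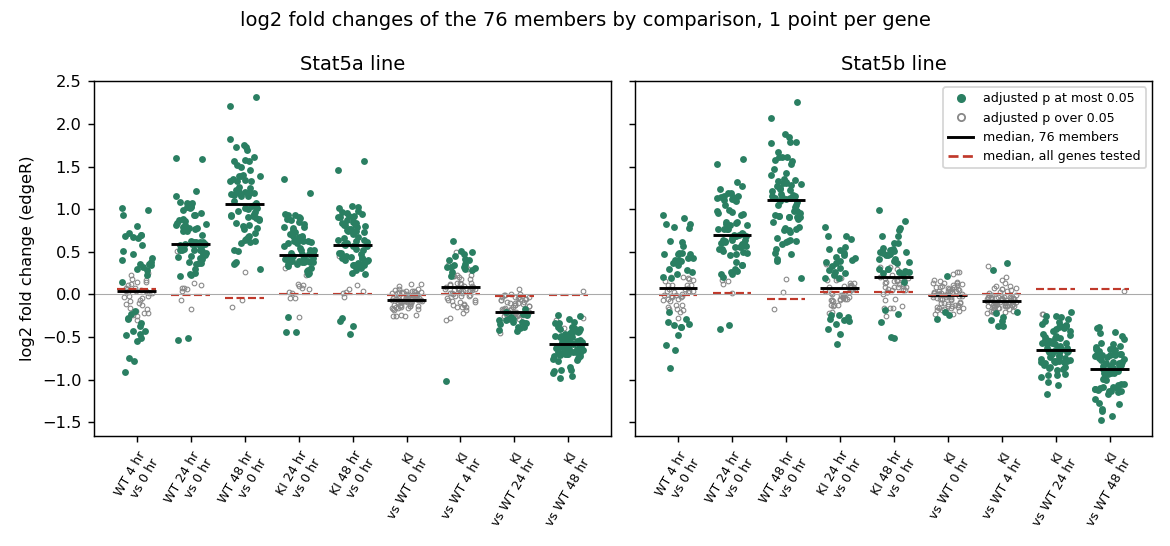
log2 fold changes from edgeR (y axis) of the 76 members in each comparison (x axis) in the Stat5a line (left) and the Stat5b line (right), with 1 point per gene (filled where the adjusted p is at most 0.05). Solid bars are the medians of the members and dashed bars the medians of all 15562 genes tested, and the members' medians reach 1.06 and 1.11 in WT cells at 48 hr and fall to -0.58 and -0.88 for KI against WT at 48 hr.

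Before culture, the members differed little between KI and WT cells. In the Stat5a line 0 of 76 were called in either direction at 0 hr, where 1.02% of all genes were lower and 2.42% higher in KI cells, and the median log2 fold change was -0.06. In Stat5b KI cells 3 members were lower and 1 higher at 0 hr, against 11.1% and 13.2% of all genes, with a median of -0.01. The lower ones were Mrpl23, Mrpl49, and Mrps30, and leaving out single libraries gave 0 to 5, where 6.81% to 9.66% of all genes were lower. The log2 fold changes there ran from -0.29 (Mrpl49) to 0.27 (Mrpl51, adjusted p = 0.0636 by edgeR's quasi-likelihood test).

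At 4 hr the counts in the Stat5a line depended on single libraries. In Stat5a KI cells 18 members were higher and 1 lower than in WT cells, against 9.99% and 15.0% of all genes, with a median log2 fold change of 0.09. Without replicate 2 of the WT cells, 7 were higher and 0 lower, against 6.42% and 5.81% of all genes, with a median of 0.12. Without replicate 1 of the WT cells 23 were higher and 6 lower (15.8% and 20.1% of all genes), and without their replicate 3 the counts were 22 and 3 (15.9% and 19.0%). Leaving out a KI library leaves an arm of 1 library, whose spread is then assumed to be that of the other groups. In that case 0 members were called in either direction without replicate 1 (0.386% and 0.350% of all genes) and 22 higher and 0 lower without replicate 2 (10.7% and 9.72%). The lower member with all 5 libraries was Mrpl35, named here after its values were seen, homolog of bacterial L35. It was at 4.18, 12.8, and 4.89 RPKM in the 3 WT libraries, the middle value being replicate 2, and its log2 fold change of -1.01 (adjusted p = 0.0227 by edgeR's quasi-likelihood test) became 0.15 (adjusted p = 0.525) without that library. In Stat5b KI cells 7 members were lower and 2 higher at 4 hr, against 10.2% and 15.4% of all genes, with a median log2 fold change of -0.08. Leaving out single libraries gave 3 to 8 lower members there, where 7.65% to 10.2% of all genes were lower.

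At 24 hr, nearly all members had lower levels in Stat5b KI cells than in their WT cells, and fewer did in Stat5a KI cells, where the count depended on the setting. In Stat5a KI cells 19 were lower and 0 higher, against 10.8% and 8.34% of all genes, with a median log2 fold change of -0.21 (-0.01 for all genes tested). In Stat5b KI cells 74 were lower and 0 higher, against 26.5% and 24.1% of all genes, with a median of -0.65 (0.07 for all genes tested). A fold of at least 2 was reached by 3 of these members, against 5.78% of all genes. All 19 members lower in Stat5a KI cells at 24 hr were also among the 74 lower in Stat5b KI cells. With 74 of the 76 members called there, this overlap was nearly fixed in advance. For 75 of the 76 members the log2 fold change was the lower one in Stat5b KI cells, Mrpl35 being the exception. That count was not made over all genes. The Stat5a count was 7 without replicate 2 of the WT cells and 8, 9, and 10 without replicate 1, 2, and 3 of the KI cells, where 5.6% to 6.97% of all genes were lower. It was 1 by limma on RPKM values, against 5.79% of all genes, and 3 with all 48 libraries, against 3.62% of all genes, shares of the members (1.32% and 3.95%) that are under or near those of all genes. A test of the difference between the lines was made at 48 hr only.

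At 48 hr, nearly all members were lower in KI cells of both lines than in their WT cells. In Stat5a KI cells 72 of 76 were lower and 0 higher, against 25.6% and 18.6% of all genes, with a median log2 fold change of -0.58 (0.00 for all genes tested), and 0 of them reached a fold of 2, against 2.85% of all genes. In Stat5b KI cells 75 were lower and 0 higher, against 32.5% and 31.1% of all genes, with a median of -0.88 (0.06 for all genes tested). A fold of at least 2 was reached by 23 members in Stat5b KI cells, against 10.7% of all genes. The 72 members lower in Stat5a KI cells were all lower in Stat5b KI cells. With 75 of 76 called there, this overlap was nearly fixed in advance. The medians were -0.60 for the large and -0.54 for the small subunit in Stat5a KI cells and -0.89 and -0.83 in Stat5b KI cells.

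The largest difference at 48 hr in both lines was that of Mrpl12, the protein of the stalk that recruits translation factors, which is also reported to bind the mitochondrial RNA polymerase. In the Stat5a line Mrpl12 was at 91.2, 111.1, and 99.5 RPKM in WT and at 59.8, 54.3, and 50.3 RPKM in KI cells at 48 hr. In the Stat5b line it was at 105, 102, and 101 RPKM in WT and at 42.0, 44.6, and 34.6 RPKM in KI cells. The genotypes did not overlap in either line, and all Stat5b KI libraries were below all Stat5a KI libraries. The log2 fold changes were -0.98 ± 0.09 (SE, adjusted p = 3.72e-11 by edgeR's quasi-likelihood test) in Stat5a KI and -1.47 ± 0.09 (adjusted p = 1.39e-16) in Stat5b KI cells. At 0 hr Mrpl12 was at 27.4 to 32.0 RPKM in Stat5b WT and 29.3 to 36.8 RPKM in Stat5b KI cells, ranges that overlap.

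Mrpl12 was already apart at 24 hr in the Stat5b line, at 65.8, 77.3, and 71.5 RPKM in WT and at 30.9, 33.2, and 33.3 RPKM in KI cells (log2 fold change -1.17, adjusted p = 2.35e-13 by edgeR's quasi-likelihood test). In the Stat5a line it was at 57.0, 56.9, and 55.8 RPKM in WT and at 48.2, 52.8, and 53.0 RPKM in KI cells at 24 hr (log2 fold change -0.23, adjusted p = 0.0563). Mrpl10, the base of the same stalk, differed less. Its log2 fold changes at 48 hr were -0.25 (adjusted p = 0.00863) in Stat5a KI and -0.49 (adjusted p = 1.64e-06) in Stat5b KI cells.

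Mrps22, a small subunit protein without a bacterial homolog, was at 20.6, 23.5, and 22.8 RPKM in WT and 14.5, 12.4, and 11.7 RPKM in KI cells of the Stat5a line at 48 hr. In the Stat5b line it was at 23.6, 23.3, and 22.8 RPKM in WT and 9.63, 9.82, and 8.70 RPKM in KI cells. The Stat5b KI libraries of Mrps22 at 48 hr were under 11 RPKM and all WT libraries over 20 RPKM. The log2 fold changes were -0.89 (adjusted p = 2.25e-09 by edgeR's quasi-likelihood test) and -1.43 (adjusted p = 4.93e-15). The other members among the 5 lowest in Stat5a KI cells were Mrpl1 (-0.95), Mrpl47 (-0.92), and Mrpl42 (-0.89). Those in Stat5b KI cells were Mrpl20 (-1.37), which binds the rRNA early in assembly, Mrps28 (-1.35), and Mrpl16 (-1.29).

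Mrpl24 was the member that was lower at 48 hr in neither KI line. It was at 68.6, 65.3, and 69.4 RPKM in Stat5a WT, 73.5, 77.3, and 72.4 RPKM in Stat5a KI, 69.5, 70.8, and 68.6 RPKM in Stat5b WT, and 79.2, 74.9, and 79.1 RPKM in Stat5b KI cells. On the RPKM scale all KI libraries were above all WT libraries, but after TMM scaling the log2 fold changes were 0.03 (adjusted p = 0.684 by edgeR's quasi-likelihood test) and 0.04 (adjusted p = 0.61). Mrpl24 shares 37.4% of its exon bases with Rrnad1 on the opposite strand, and the use of strand in counting is not stated. Rrnad1 was listed at 3.98 to 8.40 RPKM over the libraries.

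Besides Mrpl24, the members that did not pass the test in Stat5a KI cells at 48 hr were Mrpl9, Mrps14, and Mrps21. Mrpl9 was at 38.2, 39.0, and 40.6 RPKM in WT and 35.7, 34.7, and 32.4 RPKM in KI cells, with a log2 fold change of -0.30 (adjusted p = 0.054 by edgeR's quasi-likelihood test), and in the Stat5b line it was at -0.39 (adjusted p = 0.00767). Mrps21, one of the most abundant members, had log2 fold changes of -0.28 (adjusted p = 0.0687) in Stat5a KI and -0.52 (adjusted p = 0.000563) in Stat5b KI cells. The other members with the smallest differences were Mrps26 (-0.25 and -0.38) and Mrpl4 (-0.29 and -0.65) among the 5 nearest to 0 in the Stat5a line, and Mrps35 (-0.44) and Mrpl43 (-0.45) among those in the Stat5b line.

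**Figure D3:**
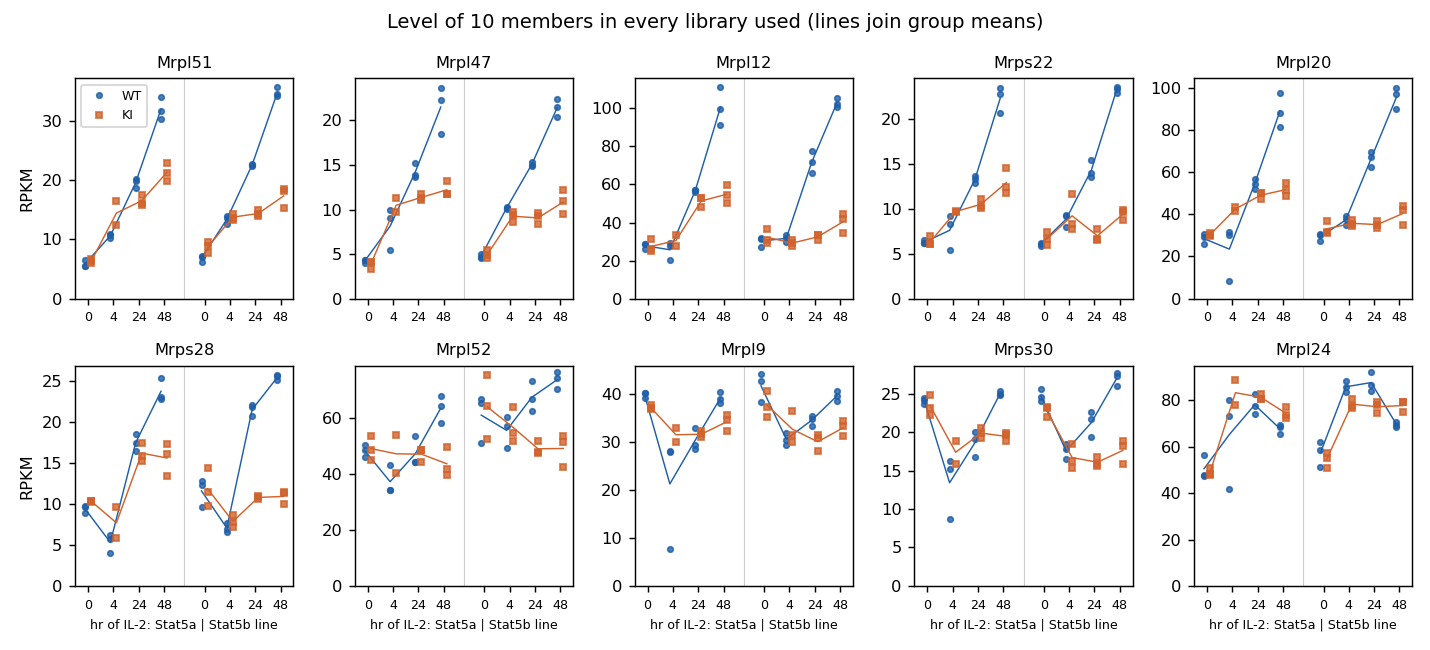
RPKM (y axis) of 10 members in every library used against hr of IL-2 (x axis), with the Stat5a line left and the Stat5b line right of the vertical bar in each panel, circles for WT and squares for KI libraries, and lines through the group means. Mrpl51, Mrpl47, Mrpl12, Mrps22, Mrpl20, and Mrps28 separate by genotype at 48 hr in both lines, while the KI libraries of Mrpl24 are not the lower ones at 48 hr, and Mrpl9 and Mrps30 have lower values at 4 and 24 hr than at 0 hr in WT cells.

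The KI effects of the lines were compared directly at 48 hr as the Stat5b log2 fold change minus the Stat5a log2 fold change. The median over the members was -0.30, and 22 members were called lower and 0 higher. Of the 15562 genes tested, 1242 (7.98%) were called lower and 512 higher. The log2 fold change was the lower one in Stat5b KI cells for 74 of the 76 members, the exceptions being Mrpl24 and Mrpl35. That count was not made over all genes tested, whose median difference between the lines was 0.01. The largest differences were those of Mrps28 (-0.64 ± 0.16, SE, adjusted p = 0.00808 by edgeR's quasi-likelihood test), Mrpl16 (-0.61, adjusted p = 0.0032), Mrps22 (-0.54, adjusted p = 0.0081), Mrps7 (-0.50, adjusted p = 0.0435), and Mrpl12 (-0.50, adjusted p = 0.00663). The libraries of Mrps28 at 48 hr were 22.8, 25.4, and 23.1 RPKM in Stat5a WT, 17.3, 16.1, and 13.5 RPKM in Stat5a KI, 25.8, 25.6, and 25.1 RPKM in Stat5b WT, and 11.5, 11.4, and 9.94 RPKM in Stat5b KI cells. The WT libraries of the lines lay close together, and the Stat5b KI libraries were below the Stat5a KI libraries. This count depended on single libraries at 48 hr. It was 9 or 13 without replicate 1 or 3 of Stat5a WT, 10 or 14 without replicate 1 or 2 of Stat5a KI, 11 or 14 without replicate 1 or 2 of Stat5b WT, and 8 without replicate 3 of Stat5b KI cells. In these fits 4.54% to 6.35% of all genes were called lower. It was 50 when only these groups were fitted and 2 by limma on RPKM values, where 19.0% and 4.21% of all genes were called lower, respectively, and 1 with all 48 libraries (0.857%). By limma the share of members called (2.63%) was thus under that of all genes. Each line had its own WT littermates, and the line and anything else that differed between the lines cannot be told apart in this difference.

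**Figure D4:**
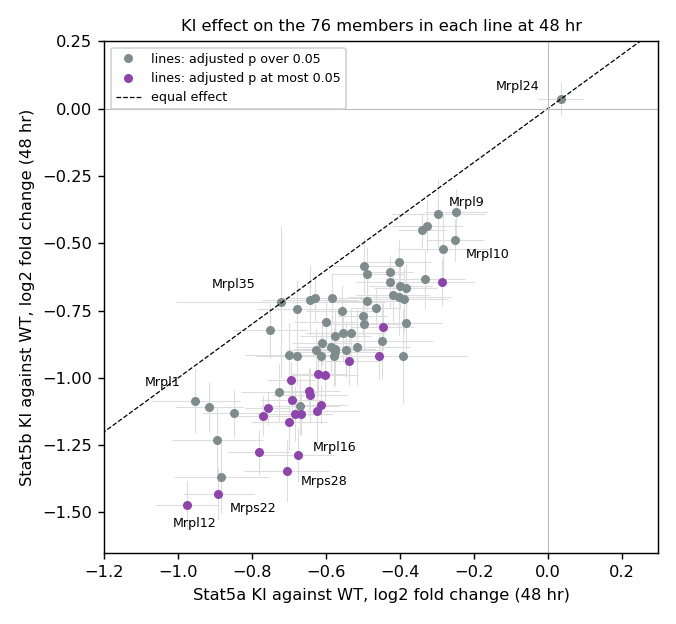
log2 fold change of KI against WT cells at 48 hr in the Stat5a line (x axis) and the Stat5b line (y axis) for the 76 members, with grey bars for the SE and a dashed line at equal effect. Nearly all points lie under the dashed line, the filled purple points are the 22 members whose difference between the lines passed the test, and Mrpl24 lies near 0 on both axes.

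The change from 0 to 48 hr of culture with IL-2 was smaller in KI than in WT cells. For the difference between the changes of KI and WT cells, 57 members were called lower and 0 higher in the Stat5a line. Of the 15562 genes tested, 2797 (18.0%) were called lower there and 1639 higher. The median of the members was -0.49 on the log2 scale. The Stat5a count of 57 was 35 by limma on RPKM values (13.7% of all genes) and 21 with all 48 libraries (7.26%). In the Stat5b line 71 members were lower and 0 higher, where 4143 (26.6%) of the 15562 genes were lower and 3545 higher. The median of the members was -0.83, and 23 reached a fold of 2, against 11.5% of all genes. The extremes were Mrpl20 (-0.94, Stat5a line) and Mrpl16 (-1.55, Stat5b line). These values share both the KI and the WT libraries at 48 hr with the comparisons of KI and WT cells and are not independent of them.

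Within KI cells of the Stat5a line, most members were higher after culture than before it. At 24 hr 61 of the 76 were higher and 3 (Mrps30, Mrpl9, and Mrpl32) lower than at 0 hr, against 30.7% and 27.1% of all genes, with a median log2 fold change of 0.46, and 65 were higher and 4 lower at 48 hr, against 33.9% and 28.8% of all genes, with a median of 0.59. The 4 lower at 48 hr were Mrps30, Mrpl52, Mrpl9, and Mrpl32. In Stat5b KI cells 23 were higher and 10 lower at 24 hr, against 25.8% and 22.7% of all genes, with a median of 0.08. The 10 lower were Mrps30, Mrpl52, Mrpl9, Mrpl46, Mrps18c, Mrpl54, Mrpl32, Mrpl11, Mrpl30, and Mrpl37, from -0.58 (Mrps30) to -0.24 (Mrpl37). At 48 hr 32 were higher and 5 lower, against 28.2% and 24.3% of all genes, with a median of 0.21, and 39 did not pass the test. The share of members called higher in Stat5b KI cells was thus near that of all genes at 24 hr.

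Among single members in Stat5b KI cells, Mrpl47 rose by 0.99 and Mrpl51 by 0.86 on the log2 scale from 0 to 48 hr, against 2.07 and 2.26 in Stat5b WT cells. For Mrpl12 the value was 0.19 (adjusted p = 0.0682 by edgeR's quasi-likelihood test), against 1.68 in WT cells. For Mrps28 it was -0.25 (adjusted p = 0.0712), against 1.05 in WT cells. The 5 lower members at 48 hr were Mrpl52, Mrps30, Mrpl9, Mrpl54, and Mrpl30, all of the large subunit.

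Mrpl3, which reaches the peptidyl transferase center, rose by 1.39 and 1.30 on the log2 scale from 0 to 48 hr in Stat5a and Stat5b WT cells and fell by 0.65 and 1.05 in KI against WT cells. Mrps12 of the decoding center had log2 fold changes of 1.03 and 1.09 in WT cells and -0.53 and -0.83 for KI against WT. Mrpl45, which lies at the inner membrane by the exit tunnel, had 1.23 and 1.28, then -0.61 and -1.10. Mrpl44, which has an RNase III fold, had 1.33 and 1.57, then -0.39 and -0.71. Each of these values passed the test, and the difference between the lines passed it for Mrpl3 (adjusted p = 0.0242) and Mrpl45 (adjusted p = 0.00143) but not for Mrps12 (0.14) or Mrpl44 (0.235), all by edgeR's quasi-likelihood test.

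Mrpl41, a large subunit protein without a bacterial homolog, had log2 fold changes of 1.33 in both WT lines and -0.49 and -0.71 for KI against WT at 48 hr. Mrps27, an RNA-binding protein of the small subunit, had 1.40 and 1.36, then -0.70 and -1.17. The 3 relatives of bacterial S18 occupy different sites, Mrps18a in the large and Mrps18b and Mrps18c in the small subunit. Their log2 fold changes for KI against WT at 48 hr were -0.58 and -0.92 (Mrps18a), -0.78 and -1.28 (Mrps18b), and -0.75 and -0.82 (Mrps18c). Mrps36, which is not a ribosomal protein, rose by 1.19 and 1.24 in WT cells and was at -0.56 and -0.83 in KI against WT cells.

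Members with and without a bacterial homolog were described side by side. In WT cells at 48 hr, 47 of the 48 with a homolog and 26 of the 28 without one were called higher in each line. Of all genes 36.9% (Stat5a line) and 35.5% (Stat5b line) were called higher. The median log2 fold changes with and without a homolog were 1.11 and 0.92 (Stat5a line) and 1.13 and 0.94 (Stat5b line). For KI against WT the medians were -0.61 and -0.56 (Stat5a line) and -0.91 and -0.75 (Stat5b line). The members also differed in how far reads could be assigned. Exons of 14 members overlap another gene, 12 on the opposite strand and 2 on the same strand, and in 8 of them the overlap exceeds 10% of exon bases. The largest is that of Mrps25, which shares 58.4% of its exon bases with Nr2c2 on the opposite strand (Nr2c2 median 19.2 RPKM). Mrps25 had log2 fold changes of 1.46 and 1.53 in WT cells at 48 hr and -0.40 and -0.66 for KI against WT, and Nr2c2 had 0.14 and 0.09, then 0.21 and 0.25. Counts of the 12 members that overlap a gene on the opposite strand are uncertain because the use of strand in counting is not stated. Those of Mrpl53 (2.26% of exon bases, with Ccdc142) and Mrps6 (18.6%, with Slc5a3) are uncertain whatever the use of strand.

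Other genes of mitochondrial translation were taken from lists chosen by role. Their counts stand beside 36.9% (Stat5a line) and 35.5% (Stat5b line) of all genes called higher in WT cells at 48 hr and 25.6% and 32.5% called lower in KI cells. In the other direction, 34.5% and 33.7% of all genes were called lower in WT cells and 18.6% and 31.1% higher in KI cells. All 7 mitoribosome proteins with other names (Dap3, Ptcd3, Chchd1, Aurkaip1, Gadd45gip1, Mrp63, and Ict1) rose in both lines, with median log2 fold changes of 0.92 and 0.94, and 6 and 7 of them were lower in Stat5a and Stat5b KI cells, with medians of -0.44 and -0.79. Ict1, which releases stalled ribosomes, had the smallest KI differences of the 7 (-0.19, adjusted p = 0.118 by edgeR's quasi-likelihood test, and -0.28, adjusted p = 0.0112). All 11 mitochondrial translation factors rose in both lines (medians 0.90 and 0.87), and 9 and 10 of them were lower in KI cells (median -0.42 in each line). Gfm1, an elongation factor, had log2 fold changes of -0.78 and -1.32 for KI against WT, and Mtif3, an initiation factor, 0.16 and 0.34.

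Of 26 genes of mitoribosome assembly and rRNA modification, 22 rose and 0 fell in Stat5a WT cells at 48 hr and 21 rose and 1 fell in Stat5b WT cells, with medians of 0.80 and 0.73. In KI against WT cells, 14 were lower and 2 higher (Stat5a line) and 16 lower and 3 higher (Stat5b line). Of 17 mitochondrial aminoacyl-tRNA synthetases, 11 and 10 rose and 0 fell in WT cells, and 7 and 12 were lower and 0 higher in KI cells. Of 12 genes for transcription and maintenance of mitochondrial DNA, 9 rose and 2 fell in each WT line, and 7 were lower and 0 higher in each KI line. Tefm, an elongation factor of mitochondrial transcription, rose by 2.41 and 2.70 on the log2 scale, while Polg2, a subunit of the mitochondrial DNA polymerase, fell by 1.42 and 1.19.

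Most cytosolic ribosomal protein genes fell in WT cells under the TMM scaling used here, and the counts of this list under other scalings are not given. Of 79, 3 rose and 58 fell in Stat5a WT cells at 48 hr (median log2 fold change -0.37) and 3 rose and 59 fell in Stat5b WT cells (median -0.42), where 34.5% and 33.7% of all genes were lower. In KI against WT cells at 48 hr 19 were lower and 0 higher in the Stat5a line (median -0.12) and 30 lower and 2 higher in the Stat5b line (median -0.17). The share called lower was under that of all genes (25.6%) in the Stat5a line and above that of all genes (32.5%) in the Stat5b line. Of all genes 18.6% and 31.1% were higher. Of 76 nuclear genes of the respiratory chain and ATP synthase, 68 and 67 rose in WT cells (medians 0.89 and 0.88), and 62 and 67 were lower in KI cells (medians -0.47 and -0.78), beside the same shares of all genes lower in KI cells and 36.9% and 35.5% higher in WT cells. The lists were not tested against each other.

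Myc, the transcription factor whose targets include genes for ribosomes and mitochondria, was at 94.2, 96.9, and 94.6 RPKM in Stat5a WT and 65.4, 67.7, and 67.7 RPKM in Stat5a KI cells at 48 hr. In the Stat5b line it was at 93.0, 90.1, and 94.8 RPKM in WT and 45.4, 42.0, and 40.2 RPKM in KI cells. The genotypes did not overlap in either line, with log2 fold changes of -0.61 (adjusted p = 0.00482 by edgeR's quasi-likelihood test) and -1.25 (adjusted p = 1.76e-07). Of the 9 listed regulators of nuclear genes for mitochondria, Myc included, 5 rose and 2 fell in each WT line at 48 hr, and 4 and 6 were lower and 0 and 1 higher in Stat5a and Stat5b KI cells. Of all genes 36.9% and 35.5% were higher and 34.5% and 33.7% lower in WT cells. In KI cells 25.6% and 32.5% of all genes were lower and 18.6% and 31.1% higher. The 9 genes were not tested against these shares. The part of Myc in the levels of the members was not tested.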

How the data were processed

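RNA-seq of splenic CD8+ T cells was analysed for 47 of 48 libraries. The authors kept uniquely mapped single-end reads (mm10, GRCm38) from TopHat and deposited raw counts on RefSeq exons and RPKM values per transcript. Submitters' processing notes name TopHat2 2.0.11, Bowtie2 2.2.6, SAMtools 0.1.8, and bedtools 2.25.0. The counting program and its use of strand are not given in the sources used here. The longest transcript of each symbol was kept. Counts were tested in 1 edgeR 4.0.16 quasi-likelihood fit over all groups (R 4.3.3, TMM, filterByExpr with a minimum count of 10, Benjamini-Hochberg over 15562 genes, calls at an adjusted p of at most 0.05). edgeR was tested on simulated data. RPKM values are given as deposited, and the levels were not tested. The total reads behind each library set the floor. In each library 3 counts are 0.0498 to 0.173 CPM, which covers counting error only. A chi-square over genes for each pair of replicates found no duplicated library.

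Alternatives were DESeq2 1.42.0 and its size factors, limma 3.58.1 on log2(RPKM + 1) with at least 1 RPKM in 3 libraries, no filter, the transcript with the highest mean count, only the groups compared, a fold of at least 2, all 48 libraries, a replicate block, and each library left out in turn. Same-numbered libraries deviated together, each with a correlation over 0.1 of deviations from the group means, in Stat5a WT cells at 24 against 0 hr (0.207, 0.276, and 0.420) and at 48 against 0 hr (0.169, 0.116, and 0.193), and not in the other comparisons. The pairing comes from these correlations, since the labels give only the numbers. Named members were the extremes of level, of the change at 48 hr, and of the KI difference, members called against the median, and members with known roles. The members and lists were chosen with earlier results of these data known. Promoter sequences come from RefSeq. A ChIP-seq control sample was not used here.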

Additional observations from a re-analysis of the deposited data

Results flagged for a closer look

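For 22 members the KI difference at 48 hr was not the same in the lines by edgeR's quasi-likelihood test of the difference itself, always with the lower log2 fold change in Stat5b KI cells, where 7.98% of all genes were called lower. The count was 8 to 24 with single libraries left out (4.54% to 8.33% of all genes) and 50 with only the groups compared (19.0%). It was 2 by limma (2.63% of the members, against 4.21% of all genes) and 1 with all 48 libraries (0.857% of all genes). Among the members named here the Stat5b minus Stat5a values on the log2 scale were -0.64 for Mrps28, -0.61 for Mrpl16, -0.54 for Mrps22, -0.50 for Mrps7, -0.50 for Mrpl12, -0.50 for Mrps18b, -0.49 for Mrpl45, -0.47 for Mrpl18, -0.46 for Mrps27, -0.45 for Mrpl51, -0.42 for Mrpl11, -0.40 for Mrpl3, -0.40 for Mrpl37, -0.37 for Mrpl17, and -0.36 for Mrpl4. The change from 0 to 48 hr differed between KI and WT cells for 57 members (Stat5a line) and 71 members (Stat5b line), all lower in KI cells, where 18.0% and 26.6% of all genes were called lower. The Stat5a count was 35 by limma (13.7% of all genes) and 21 with all 48 libraries (7.26%). B cell, myeloid, erythroid, CD4+ T cell, and CD8+ T cell markers were higher in KI than in WT libraries of both lines at 48 hr. NK cell markers were lower, and the part of these cells in the differences was not tested.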

How the results depend on the processing

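Of 272 counts of members recomputed under the alternatives, 212 stayed within 1.5 times the count given and 60 did not. For members named in the text 5147 log2 fold changes were recomputed, most of them at 48 hr. Of these 4888 kept their call, 205 were no longer called, and 51 were newly called. The other 3 changed direction, with a call in at least 1 of the 2 fits compared. A change of direction where neither fit called the member was counted among the 4888. The 3 reversed values were all of Mrpl35 in the Stat5a line at 4 hr. Mrpl35 and Mrpl49 were named after their values were seen. In KI against WT cells Mrpl35 went from -1.01 to 0.15 without replicate 2 of the WT cells and to 5.48 with all 48 libraries. It ranged from -1.39 to 0.15 over the libraries left out. In WT cells at 4 against 0 hr it went from 0.94 to -0.24 without that replicate, the range being -0.24 to 1.32. Each count in the rest of this paragraph is followed by the share of all genes called the same way under that setting. With a fold of at least 2 also required, the members higher in WT cells at 4, 24, and 48 hr numbered 1 (11.1%), 11 (9.18%), and 43 (16.0%) for Stat5a and 0 (6.10%), 17 (9.90%), and 43 (16.2%) for Stat5b WT cells. Those lower in Stat5a KI cells were then 0 (1.36%) and 0 (2.85%) at 24 and 48 hr, and those lower in Stat5b KI cells 0 (0.617%), 0 (1.12%), 3 (5.78%), and 23 (10.7%) at 0, 4, 24, and 48 hr. They were 0 (3.44%) and 23 (11.5%) for the difference in change and 0 (0.514%) for the difference between lines. With all 48 libraries the counts were 13 (19.6%) and 14 (16.4%) for WT at 4 hr (Stat5a and Stat5b lines), 3 (3.62%) for Stat5a KI at 24 hr, 21 (7.26%) for the Stat5a difference in change, 0 (2.36%) and 1 (3.45%) for Stat5b KI at 0 and 4 hr, and 1 (0.857%) for the difference between lines. With limma on log2 RPKM they were 15 (24.1%) for Stat5a WT at 4 hr, 0 (2.76%) and 1 (5.79%) for Stat5a KI at 4 and 24 hr, 35 (13.7%) for the Stat5a difference in change, 0 (2.92%) and 1 (4.63%) for Stat5b KI at 0 and 4 hr, and 2 (4.21%) for the difference between lines. With only the groups compared they were 9 (13.8%) for Stat5a WT at 4 hr, 0 (0.00%) for Stat5a KI at 4 hr, and 50 (19.0%) for the difference between lines. DESeq2 called 11 (13.4%) lower in Stat5b KI at 4 hr, and DESeq2 size factors gave 1 (8.41%) at 0 hr. The cause was not tested.

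A replicate block gave 2 lower members in Stat5a KI cells at 4 hr in place of 1 (14.6% and 15.0% of all genes). It moved no other count by over 1.5 times. Leaving out each library in turn gave 0 to 1 lower members in Stat5a KI cells at 0 hr (0.0771% to 1.25% of all genes). At 24 hr it gave 7 to 15 (5.6% to 9.83%). Leaving out each WT library at 4 hr gave 0 to 6 (5.81% to 20.1%). The 6 were 7.89% of the members, under the 20.1% of all genes in that fit. In Stat5b KI cells the counts were 0 to 5 at 0 hr (6.81% to 9.66%) and 3 to 8 at 4 hr (7.65% to 10.2%). For the difference between lines they were 8 to 24 (4.54% to 8.33%). At 48 hr, leaving out each library gave 68 to 71 lower members in Stat5a KI cells (22.0% to 24.0% of all genes). In Stat5b KI cells it gave 74 to 75 (28.9% to 31.1%). In WT cells it gave 72 to 73 higher members in each line (32.3% to 36.8% and 34.2% to 34.5%). DESeq2 size factors shifted the all-gene median of Stat5a WT at 48 hr by -0.10 and limma by 0.28 on the log2 scale. Depth set no limit on detection, since the lowest count of a member in a library used was 84.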
